A study of Mus musculus with 4 samples.

Results

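The matrix metalloproteinases and their inhibitors are described here through 10 genes, Mmp2, Mmp3, Mmp9, Mmp10, Mmp12, Mmp13, Mmp14, Timp1, Timp2 and Timp3, taken by symbol from the 19465 genes measured in each spot. All 10 were found, and all 10 passed the filter on low counts in each of the comparisons below. With the top and bottom 10% of spots in place of quartiles, Mmp2 did not pass it in the macrophage comparison and has no value there. The data are 10x Visium spatial transcriptomes of fixed, paraffin-embedded tissue, in which each gene is read by paired probes that bind to barcoded spots and are counted by unique molecular identifiers (UMIs). A primary tumour section and a lung section were taken from each of 2 mice, here named A and B by the order of their label numbers, which gives n = 2 per tissue. Both animals were BALB/c mice that received 100000 4T1 cells, from a metastatic mammary carcinoma line of the mouse, into the mammary fat pad at 8 weeks of age, and tissue was taken 28 days later. No animal without tumour cells is among the samples, so the other spots of a lung are lung tissue of a tumour-bearing mouse.

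Matrix metalloproteinases are zinc-dependent enzymes that cut collagen, elastin, proteoglycans and other proteins of the extracellular matrix, and most are secreted as inactive proenzymes. The stromelysins, Mmp3 and Mmp10, cut a broad range of matrix proteins and activate other proenzymes, Mmp13 is a collagenase, Mmp12 is the elastase of macrophages, Mmp14 is anchored in the cell membrane and activates pro-Mmp2, and the gelatinases, Mmp2 and Mmp9, cut denatured and basement membrane collagen. The Timp proteins bind the active site and inhibit them, and Timp3 is held in the matrix itself. In carcinoma these enzymes are known to come from tumour cells, from fibroblasts and from infiltrating macrophages and neutrophils, and neutrophils store Mmp9 in their granules.

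4 of the members lie together on chromosome 9 (GRCm38, GENCODE vM21), within 237.7 kb between 7272514 and 7510240, all on the forward strand. Mmp13 spans 7272514 to 7283331, Mmp12 spans 7344381 to 7369499, Mmp3 spans 7445822 to 7455975 and Mmp10 spans 7502352 to 7510240. The others lie on chromosome 2 (Mmp9), 8 (Mmp2), 10 (Timp3), 11 (Timp2), 14 (Mmp14) and X (Timp1). For each of these 4 neighbouring genes, the 100 bases before a start site are shown, from RefSeq (GRCm38.p6), 5′ to 3′ on the forward strand. Capitals mark the heptamer TGAGTCA, searched on both strands (TGACTCA is the same letters read on the other strand), to which factors of the AP-1 family are known to bind.
Mmp3, chr9:7445722-7445821: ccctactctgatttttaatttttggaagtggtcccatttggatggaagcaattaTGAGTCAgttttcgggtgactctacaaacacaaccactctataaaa
Mmp10, chr9:7502242-7502341: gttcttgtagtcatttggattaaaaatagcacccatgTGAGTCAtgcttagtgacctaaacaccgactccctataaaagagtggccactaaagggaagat
Mmp12, second listed start site, chr9:7347274-7347373: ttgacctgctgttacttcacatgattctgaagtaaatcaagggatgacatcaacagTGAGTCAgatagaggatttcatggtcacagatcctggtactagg
Mmp13, chr9:7272414-7272513: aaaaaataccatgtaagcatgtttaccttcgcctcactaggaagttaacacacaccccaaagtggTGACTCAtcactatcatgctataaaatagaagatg
The heptamer begins 46, 63, 44 and 35 bases before the start site of Mmp3, Mmp10, Mmp12 and Mmp13. The windows of Mmp3, Mmp10 and Mmp13 lie outside the annotated gene, and that of Mmp12 lies in an intron. Only windows with the heptamer are printed, so that of the first listed start site of Mmp12, at 7344397, is not. RefSeq promoters were given for 8 members (not for Mmp2 and Mmp9), and within 250 bases before the start the heptamer was found in these 4 and not in Mmp14, Timp1, Timp2, Timp3 or the first listed start site of Mmp12. Of all 32851 start sites of that length, 1466 (4.46%) hold it. Counted by gene, with the heptamer at any start site, it was 1395 of 27025 (5.16%). A match of letters is a description of the sequence, and binding was not measured.

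The kept spots, those with over 200 detected genes, were 9339 of 9445. Their depth ran from 10890154 to 30240176 UMIs per section, with a median of 1820 to 9174.5 UMIs per spot, and any 2 sections share 1458 to 2094 spot barcodes, which name positions of the slide design. Levels are given as CPM, the UMIs of a gene over all UMIs of its section or class times 1000000, and intervals in this text are exact 95% intervals that cover counting error only. Probes differ in their capture, so levels are compared between samples and not between genes. Carcinoma markers were at 0.569% and 0.536% of UMIs in the primary tumours of mice A and B, and alveolar markers at 1.33% and 0.749% of UMIs in the lungs, against 0.00205% and 0.00631% in the primary tumours. The background was read from 1141 olfactory and vomeronasal receptor genes, which these tissues should lack. In mouse A their 95th percentile was 1.70 CPM in the primary tumour and 0.539 CPM in the lung, and in mouse B it was 0.397 CPM in the lung and 19.3 CPM in the primary tumour, where these genes took 0.911% of all UMIs. Of the 10 members in 4 sections, only Mmp2 in the primary tumour of mouse B lay below that percentile and is not read as expressed there, and Timp3 in the same section lay just above it.

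The first comparison asks how the family differs between the lung and the primary tumour of the same animals. Mmp9 and Timp3 were higher in the lung, and Mmp12 and Mmp13 were higher in the primary tumour. Of the 10 members, 2 were called higher and 2 lower in the lung (edgeR quasi-likelihood test, Benjamini-Hochberg adjustment, adjusted p under 0.05), where 7.46% of the 15267 genes tested were called, 6.31% higher and 1.15% lower. With the mouse as a block, which pairs both tissues of an animal, 3 members were called higher and 5 lower, Mmp2 joining the former and Mmp3, Mmp10 and Mmp14 the latter, where 11.9% of all genes were called, 9.17% higher and 2.73% lower. The median log2 fold change was -1.37 over the members and 0.00 over all genes tested. In bulk sums of a section, fewer cells of a type and less RNA per cell cannot be told apart.

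Mmp3, a stromelysin, was in the primary tumour at 2439 CPM in mouse A and 3238 CPM in mouse B (mean 2839 ± 565, SD, n = 2). In the lung it was at 33.6 and 485 CPM (259 ± 319). The sections of the tissues did not overlap, and the lung was 72.5-fold lower in mouse A and 6.67-fold lower in mouse B. Carcinoma markers took 0.0650% of UMIs in the lung of mouse A, against 0.569% in its primary tumour. For mouse B the same shares were 0.296% and 0.536%. The part of carcinoma cells in the lower lung levels of Mmp3, Mmp10, Mmp12, Mmp13 and Mmp14 was not tested. For Mmp3 the log2 fold change was -3.27 (SE 0.953) with an adjusted p of 0.0743. With the block it was -4.16 with an adjusted p of 6.6e-05. After spots were thinned to 1000 UMIs, which left out 886 and 56 shallower spots of the primary tumours and 10 and 5 of the lungs of mice A and B, Mmp3 was seen in 86.5% (84.8% to 88.2%) and 81.3% (79.7% to 82.9%) of primary tumour spots and in 3.50% (2.67% to 4.49%) and 27.5% (25.9% to 29.2%) of lung spots. Before thinning, the shares over the same spots were 99% and 91.1% in the primary tumours and 14.3% and 76.0% in the lungs.

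Mmp10, the other stromelysin, was at 62.4 and 83.1 CPM in the primary tumours of mice A and B and at 1.98 (1.24 to 2.99) and 26.5 CPM in the lungs. The lowest primary tumour was above the highest lung, but the log2 fold change of -2.15 (SE 0.807) had an adjusted p of 0.157 (7.74e-07 with the block), and it was called in 6 of 11 alternatives. Mmp13, the collagenase, was at 537 and 382 CPM in the primary tumours and at 6.56 and 73.0 CPM in the lungs. It was called lower in the lung, with a log2 fold change of -3.35 (SE 0.843, adjusted p = 0.0437). Mmp12 was at 508 and 111 CPM in the primary tumours and at 16.8 and 47.9 CPM in the lungs, and was called lower in the lung as well (-3.05, SE 0.727, adjusted p = 0.0361). The 2 primary tumours differed 4.55-fold in Mmp12, and macrophage markers took 0.225% of UMIs in that of mouse A and 0.0502% in that of mouse B. In the lungs they took 0.0582% and 0.119%, so that in mouse B they were higher in the lung while Mmp12 was 2.33-fold lower there. The part of macrophages in the level of Mmp12 was not tested. The calls of Mmp12 and Mmp13 were lost when only spots with over 500 genes or with at least 1000 UMIs were summed, that of Mmp13 by DESeq2 (adjusted p = 0.0661), and that of Mmp12 without the primary tumour of mouse A (-1.25, adjusted p = 0.125).

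Mmp14, the membrane-bound activator of pro-Mmp2, was at 574 and 508 CPM in the primary tumours and at 52.7 and 194 CPM in the lungs. Its difference was in the same direction in both animals, with a log2 fold change of -1.92 (SE 0.542, adjusted p = 0.0669, and 0.00117 with the block). Of the 7 metalloproteinases among the members, Mmp2 and Mmp9 were not lower in the lung. Mmp2 was at 30.5 and 5.97 CPM in the primary tumours and at 31.2 and 48.6 CPM in the lungs, so that the sections of mouse A were nearly equal. Its log2 fold change of 1.36 (SE 0.654) was not called (adjusted p = 0.247, and 0.00864 with the block), and it rests on the section of mouse B that lay at background.

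Mmp9 stood the other way round, at 108 and 188 CPM in the primary tumours and at 1752 and 921 CPM in the lungs. The lung was 16.3-fold higher in mouse A and 4.90-fold higher in mouse B, and the log2 fold change was 3.54 (SE 0.588, adjusted p = 0.00993). Over the 11 alternatives with a test the call was kept in 11, with adjusted p-values of 2.53e-11 to 0.0273. Neutrophil markers took 0.264% and 1.14% of UMIs in the primary tumours and 8.11% and 3.29% in the lungs, all 8 of them measured, and the order of the lungs was the same as for Mmp9. Their part in the difference of Mmp9 was not tested.

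Of the inhibitors, Timp3 was at 52.3 and 21.5 CPM in the primary tumours and at 492 and 422 CPM in the lungs. It was 9.40-fold and 19.6-fold higher in the lung of mice A and B, with a log2 fold change of 3.92 (SE 0.561, adjusted p = 0.00635), a call kept in 11 of 11 alternatives. Since the primary tumour of mouse B was near its background, the size of the fold in that mouse is uncertain. Timp1, a soluble inhibitor, was at 104 and 68.9 CPM in the primary tumours and at 13.1 and 71.6 CPM in the lungs, and these ranges overlapped (log2 fold change -0.83, SE 0.605, adjusted p = 0.462). Timp2, which also takes part in the activation of pro-Mmp2 on Mmp14, was the most even member. Its 638 and 548 CPM in the primary tumours stood above 357 and 327 CPM in the lungs, with a log2 fold change of -0.49 (SE 0.415, adjusted p = 0.539).

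**Figure D1:**
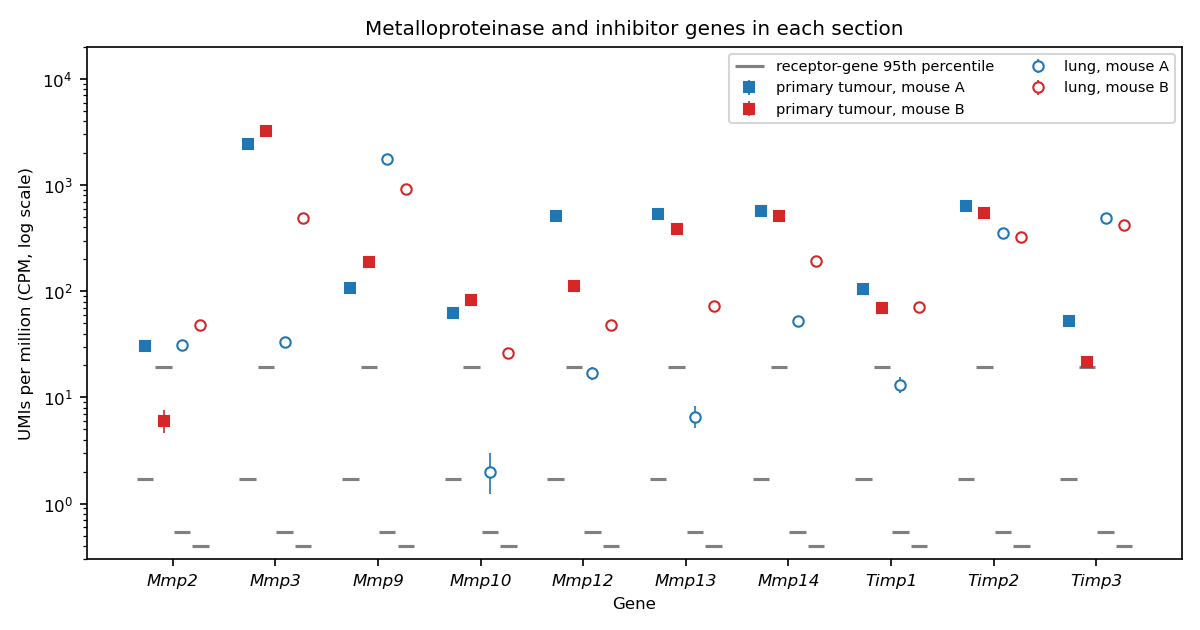
CPM (log axis) of each gene in the primary tumours (filled squares) and lungs (open circles) of mouse A (blue) and mouse B (red), with exact 95% Poisson intervals and, as grey bars, the 95th percentile of the receptor genes of that section. Mmp9 and Timp3 were higher in both lungs, Mmp3, Mmp10, Mmp12, Mmp13 and Mmp14 in both primary tumours, and Mmp2 of the primary tumour of mouse B (5.97 CPM) lay below its grey bar at 19.3 CPM.

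The lung sections hold metastatic foci as well as lung tissue, so lung spots were divided by the ratio of carcinoma to alveolar marker UMIs. A spot was called carcinoma-rich when the log2 ratio, with 1 UMI added to each sum, exceeded -1.53, the Otsu threshold over both lungs. No member was used for the class, although 11 of the 12 carcinoma markers and 4 of the 10 members (Mmp3, Mmp10, Mmp12 and Mmp13) are in a marker table of foci that the study made on these sections, so that the direction of these 4 is not independent of that choice. The class held 69 of 1697 spots in mouse A, 4.07% (3.18% to 5.12%), and 1121 of 2780 spots in mouse B, 40.3% (38.5% to 42.2%). Of the primary tumour spots, 2489 of 2490 and 2372 of 2372 lay above the same threshold, and 122 and 776 lung spots lay within 1 log2 unit of it. With a threshold set in each lung alone, the class would hold 428 spots (25.2%) of mouse A and 922 spots (33.2%) of mouse B. In the class used here, median UMIs per spot were 5871 in mouse A, against 6590 in its other lung spots. For mouse B they were 13245 and 7943. All 12 carcinoma markers were higher in the class than in the other lung spots in both animals, but their sum had set the class, so this is no separate check. In mouse A, all 5 measured airway markers and all 5 smooth muscle markers were higher as well, against 1 and 2 in mouse B, so that the 69 spots of mouse A may also hold airway wall.

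Within the lung, Mmp3, Mmp10, Mmp12, Mmp13, Mmp14, Timp1 and Timp2 were higher in carcinoma-rich than in other spots of both mice, and Mmp9 and Timp3 were lower. Macrophage markers were higher in the class as well, 9 of 10 in mouse A and 7 of 10 in mouse B (median log2 ratio 1.78 and 0.87), as were 8 and 7 of 10 fibroblast markers (0.93 and 0.30). The part of these cells in the members was not tested. None of the 10 members was called, as was none of the 15439 genes tested (0%), by edgeR with the mouse as a block. At an unadjusted p under 0.05 there were 7 of the 10 members and 3090 of all genes, and DESeq2 called 5 members and 1234 genes. The median log2 fold change was 1.15 over the members and -0.02 over all genes tested.

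Mmp3 was at 123 CPM (92.9 to 160) in carcinoma-rich and 29.9 CPM in other spots of mouse A, and at 728 and 199 CPM in mouse B. It was thus 4.13-fold and 3.66-fold higher, with a log2 fold change of 1.78 (SE 0.615, adjusted p = 0.167). The mice differed more than the classes, since the other lung spots of mouse B exceeded the carcinoma-rich spots of mouse A. Mmp10 was at 15.7 CPM (6.31 to 32.3, from 7 UMIs) and 1.40 CPM in mouse A and at 41.2 and 9.16 CPM in mouse B. Its log2 fold change of 2.44 (SE 0.561, adjusted p = 0.106) was the largest among the 10 members. Mmp13 was at 17.9 CPM (7.74 to 35.3) and 6.09 CPM in mouse A and at 113 and 25.4 CPM in mouse B, a log2 fold change of 1.98 (SE 0.701, adjusted p = 0.175).

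Mmp14 was at 287 and 42.9 CPM in carcinoma-rich and other spots of mouse A and at 261 and 115 CPM in mouse B. The carcinoma-rich spots of both mice were close to each other and above both sums of other lung spots, with a log2 fold change of 1.66 (SE 0.455, adjusted p = 0.118). Timp1 was at 49.3 and 11.6 CPM in mouse A and at 96.4 and 42.3 CPM in mouse B, a log2 fold change of 1.37 (SE 0.564, adjusted p = 0.229). Mmp12 differed less between the classes, with 35.9 (20.5 to 58.2) and 16.0 CPM in mouse A and 61.2 and 32.2 CPM in mouse B (0.93, SE 0.726, adjusted p = 0.545).

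Mmp9 was at 829 CPM in carcinoma-rich and 1790.2 CPM in other spots of mouse A and at 369 and 1574 CPM in mouse B. It was 2.16-fold and 4.27-fold lower in the class (log2 fold change -1.75, SE 0.451, adjusted p = 0.109). All 8 neutrophil markers were lower there too, at 3.39% of UMIs against 8.31% (mouse A) and at 1.01% against 5.99% (mouse B). Timp3 was at 327 and 498 CPM in mouse A and at 228 and 651 CPM in mouse B (-1.32, SE 0.443, adjusted p = 0.158), and all 6 endothelial markers and all 9 measured alveolar markers were lower in the class in both mice. The part of these cell types in Mmp9 and Timp3 was not tested, and the alveolar markers had defined the class. Timp2 was at 534 and 350 CPM in mouse A and at 355 and 293 CPM in mouse B (0.24, SE 0.302, adjusted p = 0.729). Mmp2 was higher in the class in mouse A, with 62.8 and 29.9 CPM, and not in mouse B, with 45.5 and 52.3 CPM (0.10, SE 0.656, adjusted p = 0.961).

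When the class was set by the share of carcinoma markers alone (over 0.25% of UMIs, chosen after the airway markers had been seen in the class of mouse A), it held 61 and 1146 spots of mice A and B. Airway markers were then at 0.0797% of UMIs in the class of mouse A and 0.177% outside it. Mmp3 was at 209 and 26.2 CPM in mouse A and at 709 and 174 CPM in mouse B. Mmp12 was at 88.0 and 13.8 CPM in mouse A and at 63.6 and 26.1 CPM in mouse B (1.45, SE 0.612, adjusted p = 0.181). Mmp10 (2.71, adjusted p = 0.0289), Mmp14 (1.46, adjusted p = 0.0427) and Mmp9 (-1.95, adjusted p = 0.0326) passed the threshold in this setting, in which 1166 genes (7.60%) did and the median over all genes was -0.31.

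Set against the primary tumour, the carcinoma-rich lung spots were still low in Mmp3 and high in Timp3. Of the 10 members, only Timp3 was called (log2 fold change 3.07, SE 0.474, adjusted p = 0.0247), where 1.61% of the 15439 genes were called, 1.35% higher and 0.259% lower. The median log2 fold change was -0.60 over the members and 0.05 over all genes tested. Alveolar markers took 0.354% and 0.326% of UMIs in the carcinoma-rich spots of mice A and B, against 0.00205% and 0.00631% in the tumours, and endothelial markers 0.0507% and 0.0413% against 0.0207% and 0.0154%. Carcinoma markers were lower, at 0.261% and 0.421% against 0.569% and 0.536%. Neutrophil markers took 3.39% and 1.01% against 0.264% and 1.14%, higher in mouse A and lower in mouse B. Fibroblast markers took 0.258% and 0.229% against 0.0957% and 0.0482%, and hypoxia markers 0.0576% and 0.0837% against 0.358% and 0.404%. Macrophage markers were at 0.149% and 0.148% against 0.225% and 0.0502%. The part of these shares in the differences was not tested. Timp3 was 6.26-fold higher than in the primary tumour in mouse A and 10.6-fold higher in mouse B, and it was called in 13 of 15 alternatives, not with the threshold set in each lung alone and not without the spots near it (adjusted p up to 0.164). Mmp3 was 19.8-fold lower in mouse A and 4.45-fold lower in mouse B (log2 fold change -3.24, SE 0.672, adjusted p = 0.0603). Mmp13 was 29.9-fold and 3.37-fold lower (-3.07, SE 0.754, adjusted p = 0.0961), and Mmp12 was 14.2-fold and 1.82-fold lower (-2.38, SE 0.804, adjusted p = 0.20). The folds of mouse A depend on the class. By carcinoma share alone its Mmp3, Mmp13 and Mmp12 were at 209, 35.2 and 88.0 CPM, against 123, 17.9 and 35.9 CPM in the main class, so all 3 folds were smaller. Mmp10 and Mmp14 were 2.02-fold and 1.95-fold lower in mouse B and 3.98-fold and 2.0-fold lower in mouse A, neither of them called. Mmp9 was 7.71-fold and 1.96-fold higher (2.08, SE 0.463, adjusted p = 0.0736). Mmp2 was 2.06-fold and 7.62-fold higher (1.85, SE 0.714, adjusted p = 0.243), the latter against a section at background. By carcinoma share alone Mmp2 of mouse A was at 26.4 CPM, below the 30.5 CPM of its primary tumour. Timp1 (-0.29, SE 0.583) and Timp2 (-0.31, SE 0.302) were not called either, and Timp1 lay lower in mouse A and higher in mouse B.

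**Figure D2:**
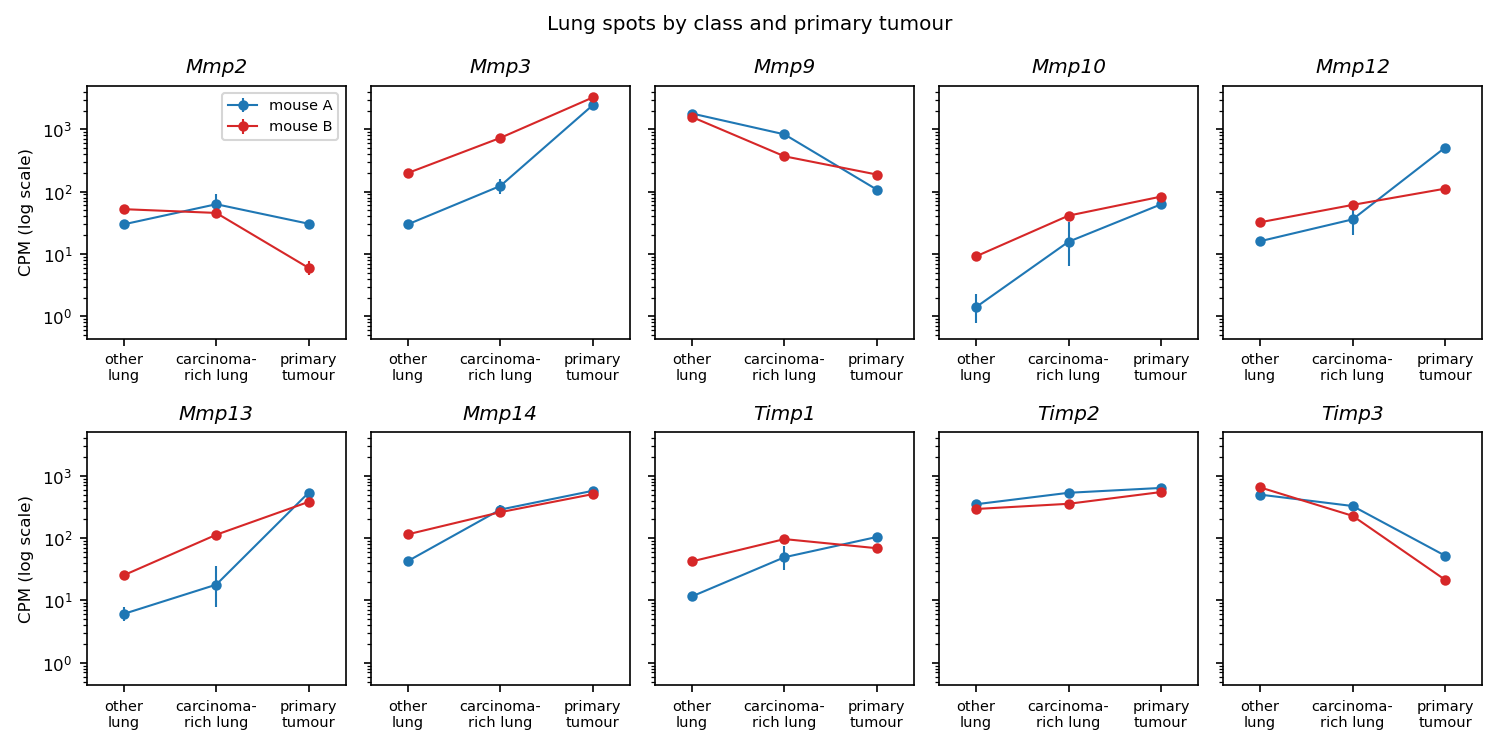
CPM (log axis) of each gene in other lung spots, carcinoma-rich lung spots and the primary tumour of mouse A (blue) and mouse B (red), with exact 95% Poisson intervals. Mmp3, Mmp10, Mmp12, Mmp13, Mmp14 and Timp2 stood in the order other lung, carcinoma-rich lung, primary tumour in both mice, and Mmp9 and Timp3 in the reverse order.

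The spread around foci could be followed in mouse B, where 1026 spots formed cores, defined as carcinoma-rich spots with at least 3 carcinoma-rich neighbours. The steps hold other lung spots only, and carcinoma-rich spots outside the cores were left out. The first step is therefore also a step between the classes. Mmp3 was at 749.7 CPM in the cores, 327 CPM in lung spots 1 step away, 210 CPM at 2 steps, 156 CPM at 3 to 4 steps and 128 CPM at 5 or more steps. It was lower at each further step, as was Mmp13, with 118 CPM in the cores and then 40.7, 28.9, 19.4 and 16.1 CPM. Mmp14 went from 262 CPM in the cores through 169 CPM at 1 step to 86.5 CPM at 5 or more steps, and Timp1 from 97.2 to 61.3 and 32.0 CPM. Mmp9 ran the other way, with 339 CPM in the cores, 1206 CPM at 1 step and 1773 CPM at 5 or more steps. Timp3 had 214 CPM in the cores and already 576 CPM at 1 step. Mmp2 and Timp2 stayed between 44.7 and 58.3 CPM and between 285 and 355 CPM. The share of carcinoma markers went from 0.428% in the cores to 0.226% at 1 step and 0.114% at 5 or more steps. That of alveolar markers went from 0.308% to 1.13% and 1.41%. These are rings within 1 section of 1 animal and were not tested. In mouse A only 34 spots formed cores, where Mmp3 was at 49.7 CPM from 10 UMIs, and its highest ring was at 2 steps, at 194 CPM.

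**Figure D3:**
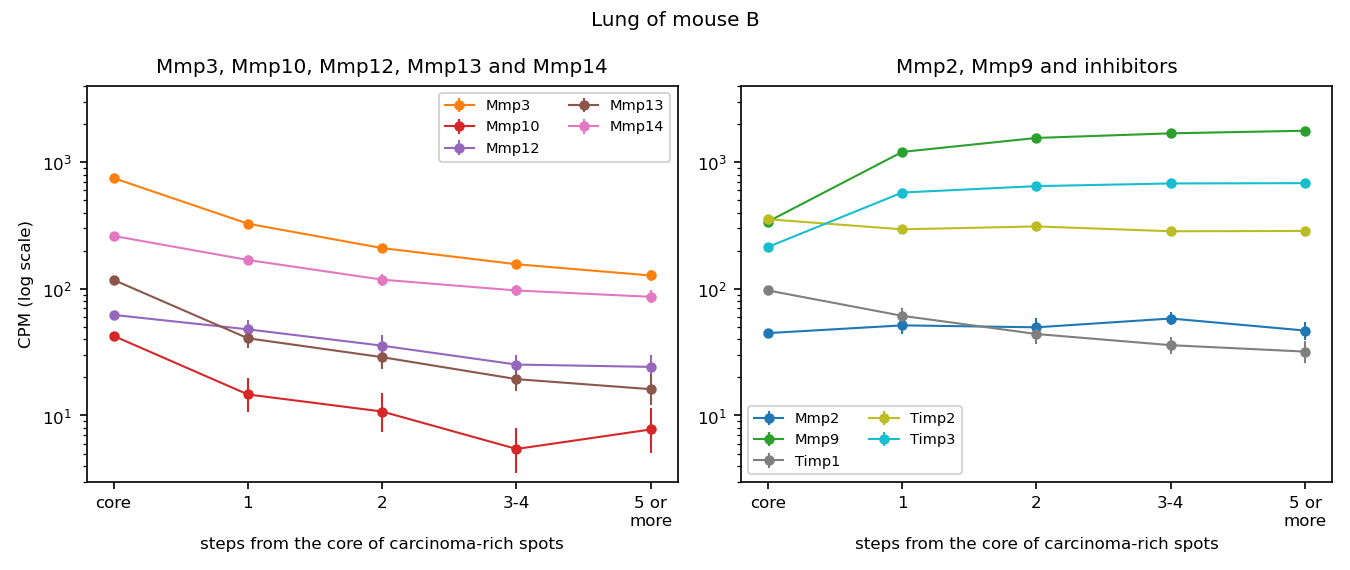
CPM (log axis) in the lung of mouse B by the number of steps from the cores of carcinoma-rich spots, with exact 95% Poisson intervals. Mmp3, Mmp13 and Mmp14 were lower at each further step, while Mmp9 and Timp3 stood at 339 and 214 CPM in the cores and at 1773 and 684 CPM at 5 or more steps.

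Moran's I, which is near 0 for spots in random order and approaches 1 where neighbouring spots are alike, was 0.69 for Mmp9, 0.59 for Mmp3, 0.48 for Timp3 and 0.40 for Mmp13 in the lung of mouse B. For 9 of the 10 members it was higher in that lung than in the other 3 sections, the exception being Timp2, with 0.11 there and 0.23 in the primary tumour of mouse A. In the primary tumours Mmp3 had the largest value in mouse B, at 0.42, and in mouse A it was 0.29, below the 0.32 of Mmp13. Mmp2 and Timp3 were at 0.00 and 0.01 in the primary tumour of mouse B, the section in which both lay near background. Depth differs between spots and sections and limits this measure, so the values are a description.

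**Figure D4:**
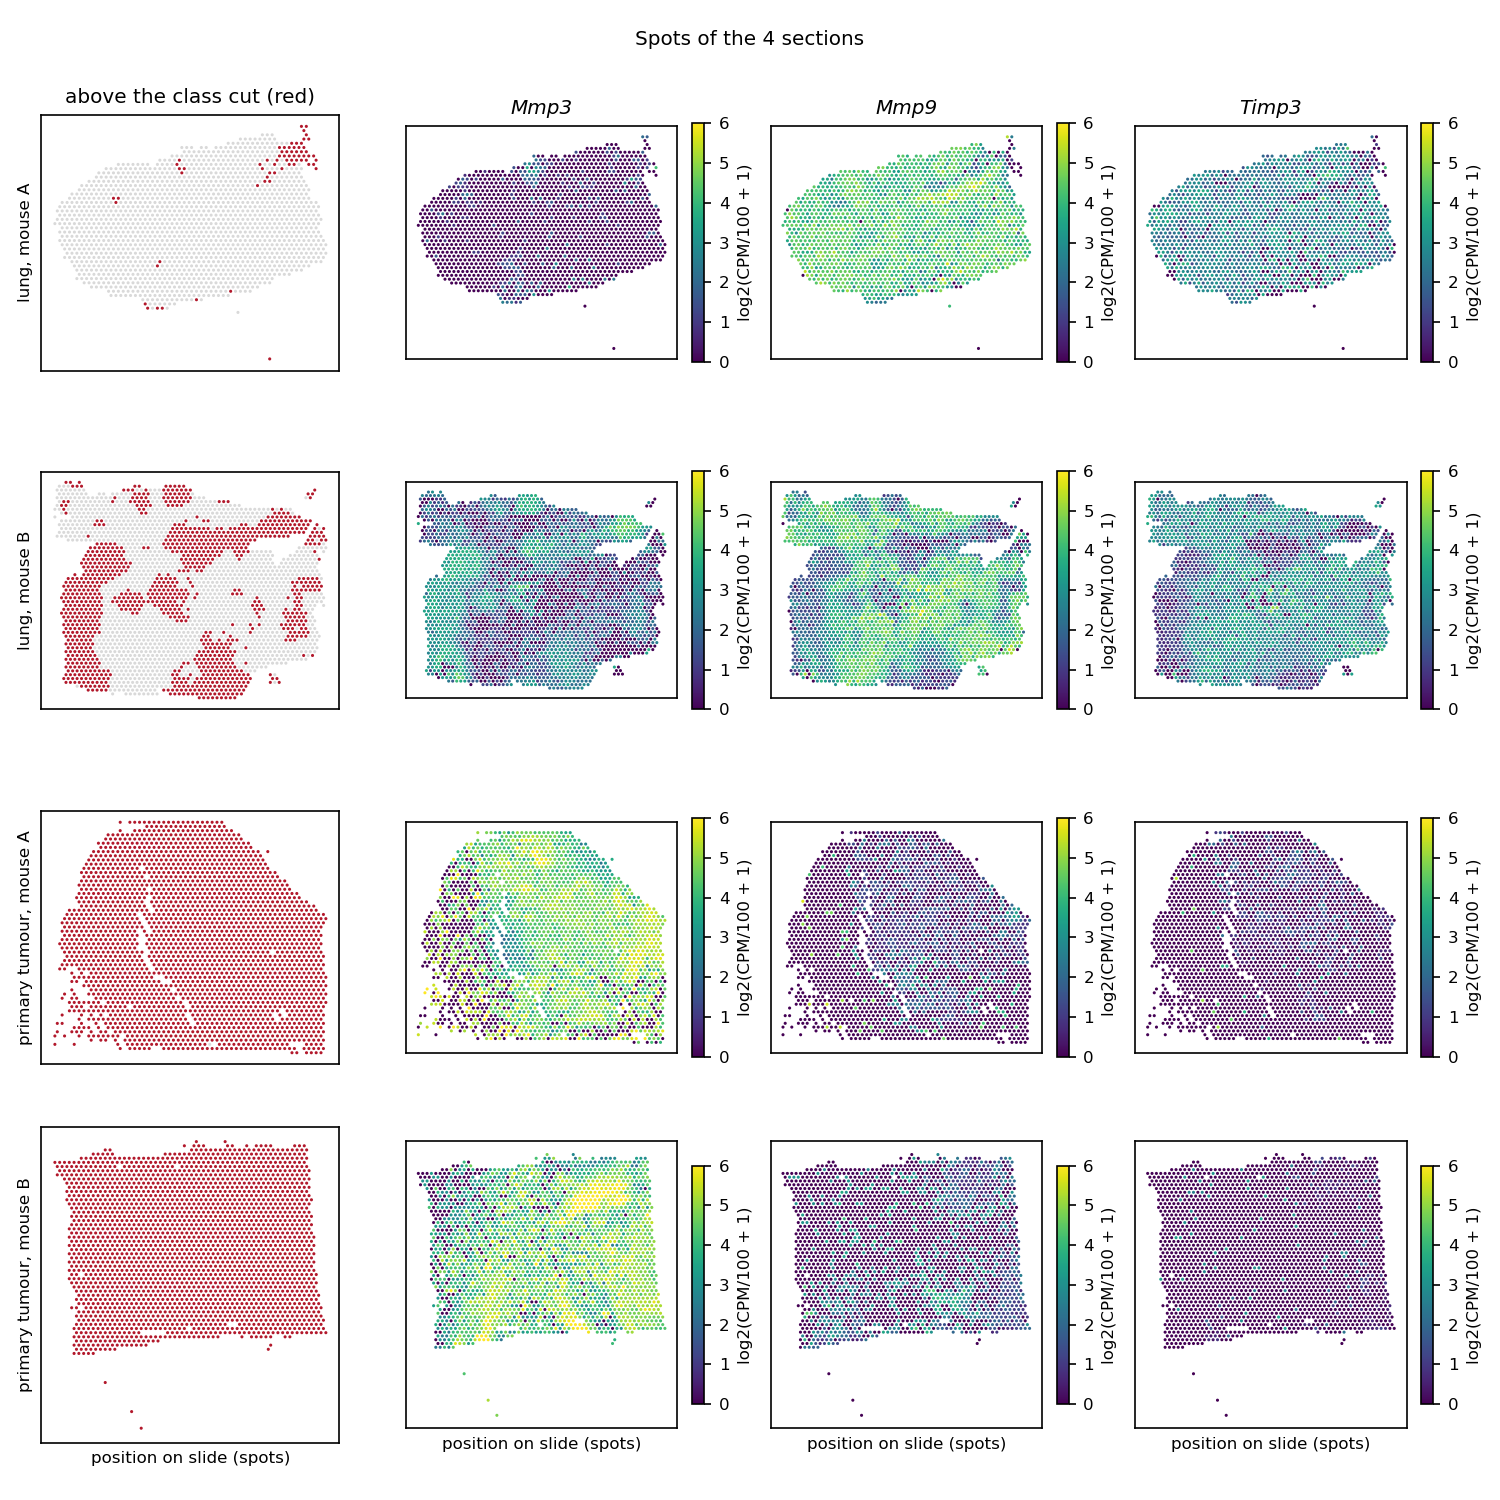
Spots of the 4 sections at their slide positions, with spots above the class threshold in red and the levels of Mmp3, Mmp9 and Timp3 as log2(CPM/100 + 1). In the lung of mouse B, where 40.3% of spots were carcinoma-rich, the red areas were high in Mmp3 and low in Mmp9 and Timp3.

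Within the primary tumour, spots were compared by their share of fibroblast, macrophage, neutrophil or hypoxia markers, the top against the bottom quartile among spots with at least 1000 UMIs, with the mouse as a block. Each class held 401 spots of mouse A and 579 spots of mouse B. Median UMIs per spot are given for rich and poor classes. In mouse A they were 6931 and 4176 (fibroblast), 8666 and 3467 (macrophage), 2812 and 10170 (neutrophil) and 5213 and 7686 (hypoxia). In mouse B they were 1516 and 1563, 1645 and 1592, 2110 and 1849, and 2493 and 1451 in the same order. In mouse B, 965 and 899 of the 2316 spots held no fibroblast or macrophage marker UMI, so that the poor classes of that section were taken from ties. Ratios per mouse are given as log2 with 1 CPM added.

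In fibroblast-rich spots Mmp2, which fibroblasts are known to make, was the only member called higher (log2 fold change 1.72, SE 0.355, adjusted p = 0.00216), where 0.138% of the 17412 genes were called, 0.109% higher and 0.0287% lower. It was at 59.4 and 12.2 CPM in fibroblast-rich and fibroblast-poor spots of mouse A and at 10.3 and 9.92 CPM in mouse B. The ratio was thus 2.19 in mouse A and 0.05 in mouse B, where Mmp2 lay below background, and the call rests on mouse A. In the spots of that tumour Mmp2 had a correlation of 0.20 with the fibroblast list and 0.20 with the epidermis list (Krt1, Krt5 and other keratinocyte genes), over 2490 spots that share 1 section and its depth. Of the 6 epidermis markers 4 were higher in the fibroblast-rich spots of mouse A, at 0.0203% of UMIs in sum against 0.00501%, and 2 in mouse B, at 0.00586% against 0.00911%. None of the 6 was at 0, and their part in the result was not tested. DESeq2 and the fit without the block called no gene. Timp3 was at 83.0 and 30.6 CPM in mouse A and, near background, at 22.5 and 19.8 CPM in mouse B (1.10, SE 0.365, adjusted p = 0.526). Timp1 had ratios of 0.56 and 0.50 in mice A and B (fitted 0.72, SE 0.467, adjusted p = 0.849). Mmp9 was the only member with a ratio below 0 in both mice, at -0.14 and -0.19, while its fitted log2 fold change was 0.020 (SE 0.525, adjusted p = 0.991).

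In macrophage-rich spots none of the members was called, where 0.115% of the 17332 genes were called. By edgeR 3 members and 9.31% of all genes had an unadjusted p under 0.05, and DESeq2 called no member. They were Timp3 (1.23, SE 0.299, adjusted p = 0.127), Mmp2 (0.93, SE 0.338, adjusted p = 0.472) and Mmp12 (0.74, SE 0.331, adjusted p = 0.516). Mmp12, the macrophage elastase, was at 532 and 405 CPM in macrophage-rich and macrophage-poor spots of mouse A and at 156 and 86.4 CPM in mouse B. Timp3 was at 73.5 and 23.1 CPM in mouse A and at 24.8 and 20.8 CPM in mouse B. In mouse B Timp3 lay near background and Mmp2 below it.

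In neutrophil-rich spots Mmp9 was at 141 CPM against 98.8 CPM in neutrophil-poor spots of mouse A and at 391 against 130.0 CPM in mouse B. It was the only member with a ratio above 0 in both mice, 0.51 and 1.58, but was not called (0.99, SE 0.399, adjusted p = 0.187), where 3.24% of the 15293 genes were called, 3.08% higher and 0.163% lower, and none of the members. At an unadjusted p under 0.05 there were 2 members, Mmp9 and Mmp2, and 14.1% of all genes, and DESeq2 called no member. With the top and bottom 10% of spots in place of quartiles, Mmp9 was called (1.60, adjusted p = 1.38e-06), as were 7.58% of all genes. Timp1, Timp2, Timp3 and Mmp14 had ratios below 0 in both mice, from -0.06 to -0.66, with Timp3 of mouse B near background. The neutrophil-rich spots of mouse A had a median of 2812 UMIs against 10170.0 in the poor ones.

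In hypoxia-rich spots none of the members was called, where 0.248% of the 15722 genes were called, 0.0636% higher and 0.184% lower. Mmp10 was the 1 member with an unadjusted p under 0.05 by edgeR, as 4.48% of all genes had (0.78, SE 0.277, adjusted p = 0.412), at 70.1 and 49.7 CPM in mouse A and 78.6 and 44.5 CPM in mouse B, and DESeq2 called none. Mmp3 was at 2696 and 2196 CPM in hypoxia-rich and hypoxia-poor spots of mouse A and at 3553 and 1976 CPM in mouse B (0.72, SE 0.711, adjusted p = 0.998). Timp3 and Mmp2 had ratios below 0 in both mice, -0.58 and -0.43 for Timp3 and -0.15 and -1.15 for Mmp2. In mouse B Mmp2 was at 4.38 and 10.9 CPM, below the receptor background of 19.3 CPM. Timp3 was at 20.9 and 28.5 CPM there, near it, so the directions in that mouse are uncertain.

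**Figure D5:**
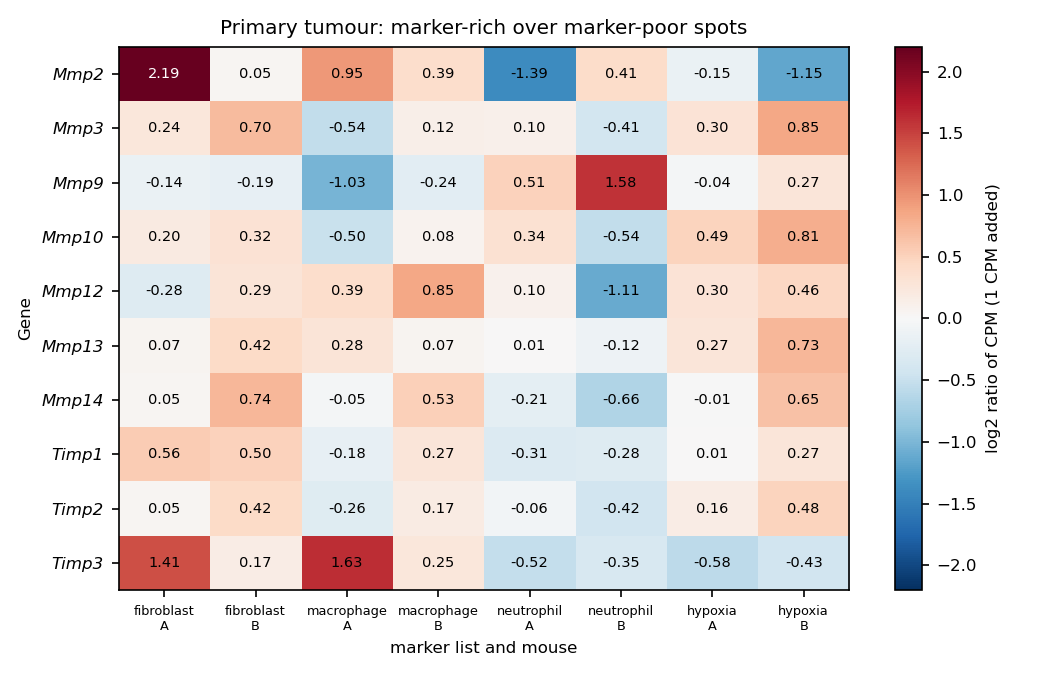
Log2 ratios of CPM (1 CPM added) between the spots richest and poorest in each marker list, in the primary tumours of mice A and B, as colour and printed value. In mouse B, Mmp2 lay below the receptor background and Timp3 near it. The ratios above 1 were those of Mmp2 (2.19) and Timp3 (1.41) in fibroblast-rich and Timp3 (1.63) in macrophage-rich spots of mouse A and of Mmp9 (1.58) in neutrophil-rich spots of mouse B, and those below -1 were Mmp2 (-1.39, neutrophil) and Mmp9 (-1.03, macrophage) in mouse A and Mmp2 (-1.15, hypoxia) and Mmp12 (-1.11, neutrophil) in mouse B.

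The same division of carcinoma-rich lung spots was usable in mouse B, since mouse A had few such spots. In mouse B Mmp2 was at 96.7 CPM in fibroblast-rich and 15.4 CPM in fibroblast-poor spots, a ratio of 2.57, and Timp1 was at 147 and 56.2 CPM, a ratio of 1.37. Mmp12 ran the other way, at 34.7 and 102 CPM (-1.52), as did Mmp9, at 267 and 508 CPM (-0.93), Mmp13 (-0.86) and Timp3 (-0.65). Mmp9 was at 831 and 204 CPM in neutrophil-rich and neutrophil-poor spots and Timp3 at 421 and 103 CPM, both with a ratio of 2.02. Mmp10 had a ratio of -1.54 and Mmp3 of -0.91 between the same spots. Timp3 and the neutrophil markers were both lower in carcinoma-rich than in other spots of this lung, and these classes were not tested.

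Across spots, the genes most like a member were sought among 6284 genes seen in at least 10% of spots of each section, by the mean over the 4 sections of Pearson's r of log2(CPM/100 + 1). Spots of a section share its library and depth, so r is a description. For Mmp9 the most alike were the neutrophil genes S100a8 and S100a9 (mean r 0.44 for both) and Wfdc17 (0.41). The value for S100a8 was 0.12 and 0.20 in the primary tumours of mice A and B and 0.61 and 0.84 in the lungs. For Mmp3 they were Ctsl (0.40), a lysosomal cathepsin, Hspa5 (0.33), a chaperone of the endoplasmic reticulum, and Pabpc1 (0.33), a poly(A)-binding protein. For Mmp14 they were Ctsl (0.30), Spp1 (0.28), which encodes osteopontin, and Hspa5 (0.28), and for Mmp13 Pabpc1, Mmp3 and Ctsl (each 0.25). The other 6 members had no gene with a mean of 0.2 or more. Among the 45 pairs of members the highest were Mmp3 with Mmp14 (0.27) and Mmp3 with Mmp13 (0.25), and the lowest was Mmp3 with Mmp9 (-0.11). The last pair had r of 0.16 and 0.12 in the primary tumours and -0.15 and -0.56 in the lungs.

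Of 49 further genes of the family (other metalloproteinases, inhibitors and partners, activators, and Adam and Adamts proteases), 46 were tested between lung and primary tumour, with 6 called higher and 0 lower, beside the 6.31% and 1.15% of all genes. Their median log2 fold change was 0.56. Mmp24 (-8.90), Mmp7 (-5.42) and Mmp20 (-5.16) had fitted values of larger size that were not called. Of the 6 called, the largest were Adamts15 (4.27, adjusted p = 0.00952), a proteoglycan-cutting protease, Mmp25 (3.85, adjusted p = 0.0132), a membrane-anchored metalloproteinase of leukocytes, Mmp15 (2.83, adjusted p = 0.0178) and Mmp8 (2.82, adjusted p = 0.0313), the collagenase of neutrophils. The others were Adam19 (2.03) and Adamts1 (1.73), and Adamts1 was also the only one called between carcinoma-rich lung spots and the primary tumour (1.69, adjusted p = 0.0357). Between carcinoma-rich and other lung spots, and in the macrophage and hypoxia comparisons, edgeR called none of them. In neutrophil-rich spots of the primary tumour Mmp8 (2.31, adjusted p = 4.5e-07) and Mmp25 (1.41, adjusted p = 0.0437) were called higher and Thbs2, a matrix protein that binds metalloproteinases, lower (-1.36, adjusted p = 0.00322). In fibroblast-rich spots Thbs2 was the only one called (2.15, adjusted p = 0.00748).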

How the data were processed

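The deposited values are unnormalized UMI counts for every gene in every spot, which the authors made with Space Ranger 2.0.0 (file header) on mm10. Spots with over 200 genes were kept, and counts were summed per section or class. Sums were tested with edgeR 4.0.16 in R 4.3.3 (TMM, filterByExpr, quasi-likelihood test, Benjamini-Hochberg over all genes, threshold 0.05), without a block for the sections and with the mouse as a block elsewhere. Standard errors are the log2 fold change over the root of the F statistic. DESeq2 1.42.0 was an alternative. With 2 against 2 samples an exact permutation p cannot go below 0.333. The mouse pairs the sums, since its tumour and lung are of the same animal. Their deviations had a correlation of -0.29 between the tissues, 0.48 between the lung classes, -0.18 between carcinoma-rich lung spots and primary tumour, and 0.81 to 0.90 in the niches. Without the block, p-values measure the spread between 2 animals within a tissue. With it, they measure how far the difference between classes varies from animal to animal. The spread of a gene is drawn towards that of other genes, so a call does not mean that both mice were alike. All 10 members are named, and of the family lists up to 4 called genes per comparison by size, with further called genes added after their values were seen. The members and lists were chosen with earlier results of these data known. On simulated data the fit of lung against primary tumour recovered 0% of 2-fold and 74.0% of 4-fold changes. A member not called there may thus still differ 2-fold or more. The other fits recovered 33.7% to 51.0% of 2-fold and 84.4% to 97.9% of 4-fold changes. The simulated spread was a fixed setting and not taken from these sections, so the shares may be too high for them. Otsu threshold, intervals and correlations used Python 3.11.15, numpy 2.4.6 and scipy 1.17.1. The outlines of foci on the histology were not used here.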

Additional observations from a re-analysis of the deposited data

Results flagged for a closer look

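For 5 of the 40 pairs of a member and a marker list, the ratio between marker-rich and marker-poor spots had one sign in both primary tumours and the opposite sign in the carcinoma-rich lung spots of both mice. Over all genes with a UMI in each of the sections, 11.9% of 47761 pairs of a gene and a list showed this pattern, and 5 of 38 such pairs of the members, so nothing is read from the count. The difference between the tissues was not tested, and the ratios of mouse A in the lung rest on 1 to 62 UMIs. Values are log2 ratios of CPM with 1 CPM added, first for the primary tumours of mice A and B and then for the carcinoma-rich lung spots of the same mice.

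Timp3 in neutrophil-rich spots was at -0.52 and -0.35 in the primary tumours and at 1.94 and 2.02 in the lung spots. The Timp3 levels behind the ratios of the primary tumour of mouse B, in all 3 lists named for it here, lay between 18.2 and 24.8 CPM, around the receptor background of 19.3 CPM. Timp3 in fibroblast-rich spots was at 1.41 and 0.17 in the primary tumours and at -0.30 and -0.65 in the lung spots. Timp3 in macrophage-rich spots was at 1.63 and 0.25 in the primary tumours and at -3.00 and -0.28 in the lung spots. Mmp2 in hypoxia-rich spots was at -0.15 and -1.15 in the primary tumours and at 0.26 and 0.41 in the lung spots, with Mmp2 of the primary tumour of mouse B at background. Mmp13 in fibroblast-rich spots was at 0.07 and 0.42 in the primary tumours and at -3.74 and -0.86 in the lung spots, where the value of mouse A rests on 1 UMI.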

How the results depend on the processing

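The number of members called between lung and primary tumour was 4, and it was 8 with the replicate block, 8 without the filter, 2 in spots with over 500 genes and 2 in spots with at least 1000 UMIs, where 11.9%, 10.5%, 5.91% and 4.64% of all genes were called. It ran from 5 to 8 with 1 section left out (8 without the lung of mouse B, 7 and 6 without the primary tumour of mouse B and A, 5 without the lung of mouse A), where 13.2%, 8.05%, 34.5% and 4.61% of all genes were called. With crossed numbers in the block, 9 members and 2565 genes (16.8%) were called, against 8 and 1817 with the labelled numbers. Between carcinoma-rich and other lung spots, where none was called, it was 5 by DESeq2, 4 without the spots near the threshold, 3 by carcinoma share alone, beside 6.39%, 9.07% and 7.60% of all genes, and 0 to 2 with 1 sum left out (2 without the carcinoma-rich spots of mouse A, 1 without the other spots of mouse B, 0 without the other spots of mouse A or the carcinoma-rich spots of mouse B), beside 3.12%, 12.1%, 0.193% and 0.104%. Between carcinoma-rich spots and the primary tumour, where 1 was called, it was 2 without the replicate block, 4 without the filter, 4 by DESeq2, 4 by carcinoma share alone, 0 with the threshold set in each lung alone, 0 without the spots near it and 5 with crossed numbers, beside 2.07%, 3.34%, 4.21%, 3.68%, 0%, 0.607% and 7.80% of all genes, and 2 to 8 with 1 sum left out (8 without the primary tumour of mouse B, 6 without that of mouse A, 5 and 2 without the carcinoma-rich spots of mouse B and A), where 17.3%, 63.2%, 3.40% and 1.96% of all genes were called. The lone sum of a class is there assumed to vary like the others. In the fibroblast comparison it was 0 without the block, 0 by DESeq2, 2 with RLE size factors and 2 in spots with at least 2000 UMIs, against 1, beside 0%, 0%, 0.247% and 0.635% of all genes. It was 1 against 0 in the macrophage comparison without the filter (0.463% of all genes), in the neutrophil comparison with RLE size factors (4.85%), with the top and bottom 10% (7.58%) and with at least 2000 UMIs (3.9%), and in the hypoxia comparison with at least 2000 UMIs (3.85%). The cause of these shifts was not tested.

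Signs changed only for members that were not called in the main analysis. In the fibroblast comparison Mmp12 was -0.16 without the block and -0.026 with the top and bottom 10%, and Mmp9 was -0.067 with RLE size factors, -0.044 by DESeq2 and -0.30 with at least 2000 UMIs. In the hypoxia comparison Mmp9 was -0.015 with at least 2000 UMIs, and in the macrophage comparison Timp1 was -0.13 and Timp2 -0.19 with the top and bottom 10% and Timp2 -0.075 with at least 2000 UMIs. Between the lung classes Mmp2 was -0.071 in spots with over 500 genes, -0.066 with at least 1000 UMIs and -0.63 by carcinoma share alone. With 1 sum or 1 mouse left out, Mmp2 ran from -0.92 to 1.30, Mmp12 from -0.22 to 1.92 and Timp2 from -0.029 to 0.61 in that comparison, Timp1 from -1.59 to 1.14 between carcinoma-rich spots and the primary tumour, and Timp1 from -2.90 to 0.056 between the tissues. Of all 819 values of single members under an alternative, 658 were counted as unchanged. For tested fits this meant the same direction and call. For fits of 1 mouse it meant a value nearer to the main one than the SD of the single-mouse values, whatever its sign. This tally is no measure of stability. It includes fits of 1 mouse, in which no gene could be called. It also includes the marker comparisons within the primary tumour over 500 genes, which were the same as the main ones. Counts from 1 mouse alone carry no test. The number of animals, and in mouse A the 69 carcinoma-rich spots, limit the comparisons.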
